A study of Mus musculus with 15 samples.

Results

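Downstream enzymes of branched-chain amino acid (BCAA) catabolism were followed in mouse liver as 9 genes, Ivd, Mccc1, Mccc2 and Auh of the leucine branch, Acad8, Hibch, Hibadh and Aldh6a1 of the valine branch, and Acadsb of the isoleucine branch. The genes were chosen by symbol in the platform's annotation, with 1 transcript cluster (the probes that the array pools for a gene) per gene, and all 9 were measured among 19938 genes. The arrays came from livers of male C57BL/6J mice in 5 groups of 3. At 68w of age, after 60 weeks of diet, they were the Ath+HF+BCAA group, fed an atherogenic and high-fat diet with 3% BCAA, and the Ath+HF group, fed that diet alone. At 38w, after 30 weeks of diet, they were the Ath+HF+BCAA group, the Ath+HF group and the basal diet group. A basal diet group of 68w was not analysed here, which leaves age, the weeks of feeding and any difference in handling as things that cannot be told apart when a 68w group is set against basal diet. The sources used here do not say whether the arrays of a group came from separate mice, so that p-values measure the spread between arrays, or whether tumor tissue was part of the samples.

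The BCAA leucine, valine and isoleucine share their first steps, a reversible transamination and an irreversible oxidative decarboxylation by the branched-chain ketoacid dehydrogenase complex in mitochondria. From there each carbon skeleton has its own branch, which opens with a flavin-dependent acyl-CoA dehydrogenase. The leucine branch ends in acetoacetate and acetyl-CoA, the valine branch in propionyl-CoA, and the isoleucine branch in both acetyl-CoA and propionyl-CoA. Liver has little of the transaminase of the first step and is known for a high capacity for the later ones. Inherited loss of several of these enzymes causes organic acidurias in humans.

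Expression is given as the log2 signal that was deposited for each array, so a difference of 1 means a 2-fold change and a level cannot be compared between genes. A gene was called higher or lower at an adjusted p under 0.05 from limma, with the Benjamini-Hochberg method over all 19938 genes. The groups are those of the arrays' labels, and no gene was altered by design that could check them. At 68w the markers of macrophages averaged 9.41 to 9.86 per array (mean log2 signal of 10 genes) in the arrays labelled Ath+HF+BCAA and 7.96 to 8.12 in those labelled Ath+HF, against 8.60 to 8.67 in basal diet livers at 38w. Markers of stellate cells and fibroblasts (8 genes) averaged 9.12 to 9.23 and 8.16 to 8.31 in these 2 groups, against 8.07 to 8.19 on basal diet. The study reports the mRNA of a collagen gene, α-SMA and PDGFRβ by qRT-PCR, and EpCAM expression, as repressed with Ath+HF+BCAA relative to Ath+HF. From its GeneChip data it also reports that genes raised with Ath+HF at 68w, many of inflammation and fibrosis, were repressed with BCAA. For the collagen gene, α-SMA, PDGFRβ and EpCAM, the arrays labelled Ath+HF+BCAA and Ath+HF at 68w had the reverse order. Mean log2 signals with Ath+HF+BCAA and Ath+HF were 9.47 and 8.04 in Col1a2, and 9.71 and 8.14 in Pdgfrb. They were 9.15 and 8.03 in Acta2 (α-SMA), and 7.86 and 6.11 in Epcam. Other genes of these reports were not compared, and an exchange of labels was not tested. Each direction between the 68w groups rests on their labels, and an exchange of both labels would turn its sign. A gene lower than on basal diet in both 68w groups would stay so. Comparisons of a 68w group with the 38w group of its diet, and the difference of the BCAA differences, rest on these labels too. The mean of the 8 hepatocyte markers measured was 13.26 to 13.52 per array over all 15 arrays. Array medians were 7.10 to 7.16 at 68w and 6.91 to 7.04 at 38w.

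Each of the 9 enzymes had both of its 68w means under its 3 means of 38w, and the share of all genes with this order was not counted. Against the basal diet group, 9 of 9 were called lower in the Ath+HF+BCAA group of 68w, where 21.8% of all genes were, and 8 of 9 in the Ath+HF group of 68w, where 19.1% of all genes were. None was called in either Ath+HF group of 38w. The largest difference from basal diet was that of Auh in the Ath+HF+BCAA group of 68w, 2.75-fold lower, followed by Acadsb, 2.40-fold lower. Within the 68w pair, Auh, Acadsb, Aldh6a1 and Mccc2 were lower in the arrays labelled Ath+HF+BCAA and Hibadh was higher there. In bulk tissue, fewer cells of a type and less RNA per cell cannot be told apart.

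The leucine branch starts with Ivd, isovaleryl-CoA dehydrogenase. Its log2 signal was 10.50 to 10.68 in the Ath+HF+BCAA group and 10.63 to 10.88 in the Ath+HF group at 68w. At 38w it was 10.91 to 11.12 with Ath+HF+BCAA and 10.81 to 11.09 with Ath+HF, against 10.95 to 11.16 on basal diet. One array of the Ath+HF group at 68w lay above the lowest Ath+HF array of 38w, and the ranges of both 68w groups lay under that of basal diet.

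Mccc1 and Mccc2 encode the α and β subunits of 3-methylcrotonyl-CoA carboxylase, the biotin-dependent next step, and the α subunit carries the biotin. Mccc1 had 8.83, 8.77 and 8.95 in the Ath+HF+BCAA group and 8.97, 8.71 and 8.53 in the Ath+HF group at 68w. At 38w, Mccc1 had 9.29, 9.31 and 9.55 with Ath+HF+BCAA and 9.52, 9.29 and 9.15 with Ath+HF, against 9.39, 9.54 and 9.35 on basal diet. The 68w groups overlapped each other in Mccc1, and all 6 of their arrays lay under the 9 arrays of 38w. Mccc2 had 8.93, 8.90 and 9.21 in the Ath+HF+BCAA group and 9.49, 9.33 and 9.27 in the Ath+HF group at 68w. At 38w, Mccc2 had 9.85, 9.89 and 9.90 with Ath+HF+BCAA and 9.76, 9.88 and 9.66 with Ath+HF, against 9.78, 9.97 and 9.85 on basal diet. In Mccc2 the 68w groups did not overlap, with Ath+HF+BCAA the lower, and both lay under the 38w arrays.

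Auh encodes 3-methylglutaconyl-CoA hydratase, the enzyme that follows the carboxylase, and its protein is also known to bind AU-rich RNA. Auh had 8.32, 8.33 and 8.66 in the Ath+HF+BCAA group and 9.18, 9.14 and 9.01 in the Ath+HF group at 68w. At 38w, Auh had 9.90, 9.97 and 9.94 with Ath+HF+BCAA and 9.91, 10.01 and 9.78 with Ath+HF, against 9.84, 10.11 and 9.74 on basal diet. The values form 3 levels that do not overlap, the lowest in Ath+HF+BCAA at 68w, the middle one in Ath+HF at 68w and the highest in all groups of 38w. Their means were 8.44 ± 0.19 and 9.11 ± 0.09 at 68w with Ath+HF+BCAA and with Ath+HF, against 9.90 ± 0.19 on basal diet (SD, n = 3 each).

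The valine branch opens with Acad8, isobutyryl-CoA dehydrogenase. Acad8 ranged over 9.24 to 9.65 in the Ath+HF+BCAA group and 9.59 to 9.85 in the Ath+HF group at 68w. At 38w it ranged over 10.03 to 10.27 with Ath+HF+BCAA and 9.96 to 10.17 with Ath+HF, against 10.23 to 10.36 on basal diet. The 68w groups overlapped in 1 array each way, and no 68w array reached the 38w range. Hibch, the hydrolase that frees 3-hydroxyisobutyrate from CoA, ranged over 9.22 to 9.51 in the Ath+HF+BCAA group and 9.50 to 9.65 in the Ath+HF group at 68w. At 38w, Hibch ranged over 9.67 to 10.14 with Ath+HF+BCAA and 9.75 to 9.96 with Ath+HF, against 9.86 to 10.31 on basal diet. Its lowest 38w array lay just above its highest 68w array, so that the ages were separate by a narrow margin.

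Hibadh, the dehydrogenase that oxidizes 3-hydroxyisobutyrate, had 11.98, 12.06 and 12.18 in the Ath+HF+BCAA group and 11.79, 11.75 and 11.80 in the Ath+HF group at 68w. At 38w, Hibadh had 12.32, 12.33 and 12.49 with Ath+HF+BCAA and 12.44, 12.25 and 12.13 with Ath+HF, against 12.44, 12.53 and 12.27 on basal diet. Here Ath+HF was the lowest group, with no overlap with the other 4, and 1 Ath+HF+BCAA array of 68w reached into the 38w Ath+HF range. Hibadh was read from the brighter of 2 clusters with its symbol alone (mean log2 signal 12.18). The other cluster was dim at 3.72, and 2 further clusters that carry Hibadh together with Top2a were not used. Aldh6a1, methylmalonate semialdehyde dehydrogenase, ends the branch with propionyl-CoA. Aldh6a1 had 10.80, 10.79 and 10.95 in the Ath+HF+BCAA group and 11.50, 11.45 and 11.39 in the Ath+HF group at 68w. At 38w, Aldh6a1 had 11.68, 11.64 and 11.81 with Ath+HF+BCAA and 11.85, 11.80 and 11.73 with Ath+HF, against 11.77, 11.85 and 11.60 on basal diet. As in Auh, the values of Aldh6a1 fell on 3 levels without overlap.

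Acadsb, the short/branched-chain acyl-CoA dehydrogenase that opens the isoleucine branch, had 8.99, 8.86 and 9.38 in the Ath+HF+BCAA group and 10.06, 10.12 and 9.55 in the Ath+HF group at 68w. At 38w, Acadsb had 10.20, 10.14 and 10.64 with Ath+HF+BCAA and 10.54, 10.47 and 10.31 with Ath+HF, against 10.41, 10.29 and 10.31 on basal diet. It had the widest spread of the 9 genes, with SDs up to 0.31 (n = 3), and 2 of the Ath+HF arrays of 68w lay close under the 38w arrays while the third was clearly lower.

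**Figure D1:**
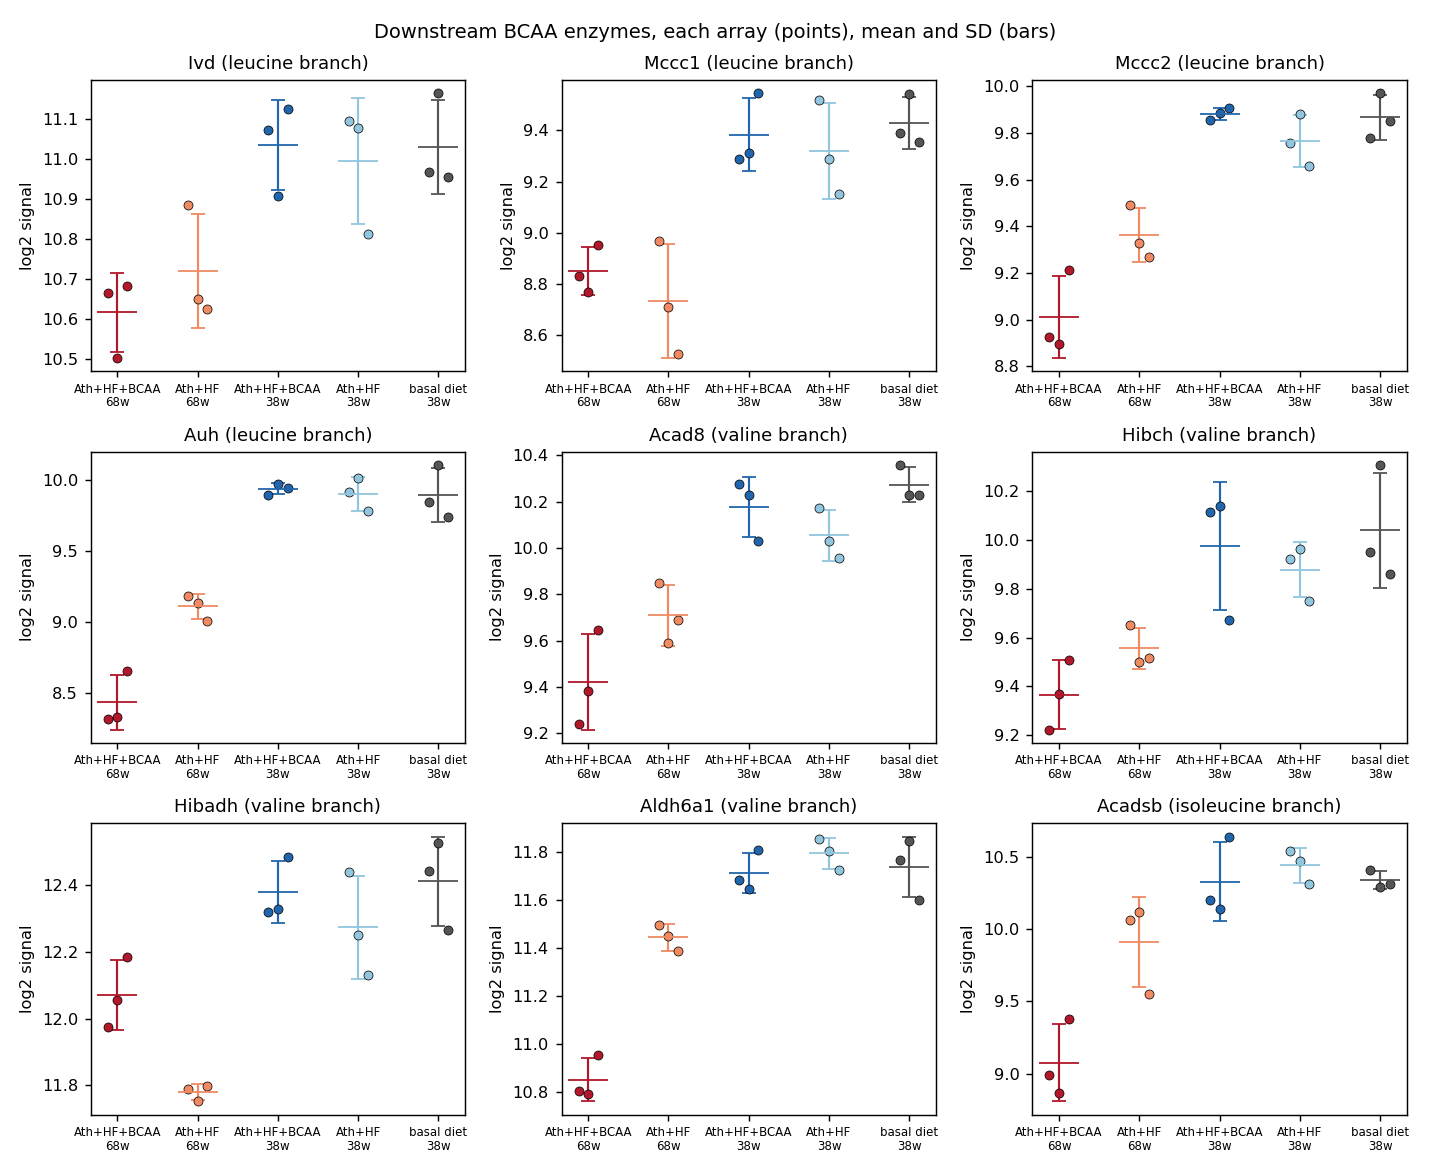
Log2 signal (vertical axis, a separate scale in each panel) of the 9 enzymes on each array (points), with the mean and SD of 3 arrays (bars), for the Ath+HF+BCAA and Ath+HF groups of 68w, the Ath+HF+BCAA and Ath+HF groups of 38w and the basal diet group of 38w. Both 68w groups lie low in every panel, Ath+HF+BCAA being the lowest in 7 panels and Ath+HF in those of Mccc1 and Hibadh.

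Ordered by group mean, the lowest place was taken by Ath+HF+BCAA of 68w in 7 enzymes and by Ath+HF of 68w in Mccc1 and Hibadh, and the other 68w group came next in each. The difference between these neighbours passed the test in Auh, Aldh6a1, Acadsb, Mccc2 and Hibadh and missed it in Ivd, Mccc1, Acad8 and Hibch. Among the 3 groups of 38w, whose order changed between the enzymes, no pair was called in any of the 9.

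Arrays of 1 group tended to be high or low in many of these enzymes together. Replicate 3 of the Ath+HF+BCAA group at 68w had the highest value of its group in 9 of 9 enzymes, and replicate 3 of the Ath+HF group at 38w had the lowest in 9 of 9. At 68w, Ath+HF replicate 1 was highest in 7, and replicate 2 of the basal diet group was highest in 7. The medians of these 4 arrays over all genes lay between 6.91 and 7.12. The share of all genes that were highest or lowest on these arrays was not counted, so the pattern is not shown to be particular to the enzymes.

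The sequences before the start sites are shown for the 5 enzymes that were called between the 68w groups, to set side by side the 4 that were lower with Ath+HF+BCAA than with Ath+HF (Auh, Aldh6a1, Acadsb and Mccc2) and the 1 that was higher (Hibadh). Each is the RefSeq window of 250 bases before to 50 bases after a start site in GRCm38.p6, written 5′ to 3′ on the gene's strand. Capitals mark matches, on either strand, to CCAAT (the letters of the CCAAT box), GGGCGG (the GC box), CACGTG (an E-box), TATAAA (the TATA box) and AGGTCA (a nuclear receptor half-site), and adjoining or overlapping matches run together.
Auh, chr13:52929628-52929927, minus strand: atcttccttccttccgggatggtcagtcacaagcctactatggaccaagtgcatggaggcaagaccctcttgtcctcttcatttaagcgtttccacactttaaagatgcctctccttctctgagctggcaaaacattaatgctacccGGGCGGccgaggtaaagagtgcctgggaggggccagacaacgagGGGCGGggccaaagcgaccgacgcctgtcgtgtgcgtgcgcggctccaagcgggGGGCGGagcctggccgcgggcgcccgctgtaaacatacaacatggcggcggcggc
Aldh6a1, chr12:84450975-84451274, minus strand: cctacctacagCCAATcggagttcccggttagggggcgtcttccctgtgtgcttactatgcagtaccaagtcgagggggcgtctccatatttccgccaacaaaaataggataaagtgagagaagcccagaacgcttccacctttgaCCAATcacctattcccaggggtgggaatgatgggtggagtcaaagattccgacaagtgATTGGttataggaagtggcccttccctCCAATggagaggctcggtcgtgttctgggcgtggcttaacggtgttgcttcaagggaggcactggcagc
Acadsb, chr7:131410351-131410650, plus strand: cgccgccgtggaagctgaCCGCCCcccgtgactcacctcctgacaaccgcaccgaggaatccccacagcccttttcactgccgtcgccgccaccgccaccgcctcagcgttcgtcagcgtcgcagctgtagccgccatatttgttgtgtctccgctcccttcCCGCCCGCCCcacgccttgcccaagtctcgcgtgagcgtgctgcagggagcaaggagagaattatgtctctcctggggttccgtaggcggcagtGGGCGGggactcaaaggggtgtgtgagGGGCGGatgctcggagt
Mccc2, chr13:100015590-100015889, minus strand: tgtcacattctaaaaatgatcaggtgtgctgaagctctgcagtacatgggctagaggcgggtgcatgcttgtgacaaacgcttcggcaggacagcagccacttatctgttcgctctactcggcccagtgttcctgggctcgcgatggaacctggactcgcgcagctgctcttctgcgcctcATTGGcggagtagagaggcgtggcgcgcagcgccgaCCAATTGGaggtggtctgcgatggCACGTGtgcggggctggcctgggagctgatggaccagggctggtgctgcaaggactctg
Hibadh, chr6:52640251-52640550, minus strand: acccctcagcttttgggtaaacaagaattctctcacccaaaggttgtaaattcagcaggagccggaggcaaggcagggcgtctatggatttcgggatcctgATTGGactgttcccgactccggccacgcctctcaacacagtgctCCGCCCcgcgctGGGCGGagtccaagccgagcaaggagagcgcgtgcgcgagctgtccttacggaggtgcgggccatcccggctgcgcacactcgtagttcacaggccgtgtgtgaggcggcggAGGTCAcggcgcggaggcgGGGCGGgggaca
The genes of the leucine branch lie at chr2:118861959-118882909 (Ivd), chr3:35956292-36000694 (Mccc1), chr13:99948532-100015639 (Mccc2) and chr13:52835107-52929704 (Auh), those of the valine branch at chr9:26974138-26999571 (Acad8), chr1:52845038-52920986 (Hibch), chr6:52546230-52640300 (Hibadh) and chr12:84430717-84451024 (Aldh6a1), and Acadsb at chr7:131410601-131446211, in the same build. All 9 enzymes had a window, and Aldh6a1 had 2, of which the one at the start of the annotated gene is shown. CCAAT was found in the windows of 6 of the 9 enzymes, against 37.4% of all 32851 windows, and GGGCGG in 6 of 9, against 35.7%. The window of Aldh6a1 held CCAAT at 4 places and no GGGCGG, while those of Auh and Acadsb held GGGCGG at 3 and 5 places and no CCAAT. None of the 9 windows held TATAAA, against 13.6% of all windows. CACGTG was in that of Mccc2 alone (7.15% of all windows), and AGGTCA in that of Hibadh alone (16.3%). The GC content was 60.7% for Auh, 53.7% for Aldh6a1, 66% for Acadsb, 60.3% for Mccc2 and 64% for Hibadh, against a median of 52.7% over all windows. These matches describe letters in a window and not binding, and no motif was found in the windows of all 4 genes that were lower with Ath+HF+BCAA.

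Each Ath+HF group was set against the basal diet group of 38w. For the 68w groups, diet, age, the weeks of feeding and any difference in handling cannot be told apart in this. In the Ath+HF+BCAA group of 68w, where 9 of the 9 enzymes were lower, 21.8% of all genes were called lower and 22.9% higher. The median difference over the 9 was -0.85 on the log2 scale, beside 0.01 over all genes. Auh differed by -1.46 (SE 0.12, adjusted p = 1.30e-07), Acadsb by -1.26 (SE 0.17, adjusted p = 1.81e-05), Aldh6a1 by -0.89, Mccc2 by -0.86 and Acad8 by -0.85. The smaller differences were -0.67 in Hibch, -0.58 in Mccc1, -0.41 in Ivd and -0.34 in Hibadh. The call of Hibadh was lost without replicate 1 of the Ath+HF+BCAA group of 68w (limma adjusted p = 0.0639) and without replicate 2 of the basal diet group (0.0561). The methods' analysis of variance with Bonferroni adjustment called 9 of 9, and 7 of 9, without Ivd and Hibadh, with a Benjamini-Hochberg adjustment over all genes added.

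In the Ath+HF group of 68w, where 8 of the 9 enzymes were lower, 19.1% of all genes were called lower and 19.0% higher. The median over the 9 was -0.51, beside 0.05 over all genes. Auh led again with -0.79 (SE 0.12, adjusted p = 0.000171), before Mccc1 with -0.69, Hibadh with -0.63, Acad8 with -0.56, Mccc2 with -0.51 and Hibch with -0.48. Ivd differed by -0.31 and Aldh6a1 by -0.30. Acadsb differed by -0.43 (95% confidence interval -0.78 to -0.07, adjusted p = 0.0544), which missed the threshold although all of its arrays lay under those of basal diet. Without replicate 2 of the basal diet group 5 of the 9 were called, with Ivd, Hibch and Aldh6a1 lost. The calls of Ivd and Aldh6a1 were also lost without replicate 2 or 3 of the Ath+HF group of 68w or replicate 1 of the basal diet group, and that of Ivd without replicate 1 of Ath+HF+BCAA at 68w (limma adjusted p = 0.0502 to 0.130). The methods' analysis of variance with Bonferroni adjustment over pairs of groups called 6 of 9, without Ivd and Hibch, and 5 of 9 (Mccc1, Mccc2, Auh, Acad8 and Hibadh) after a Benjamini-Hochberg adjustment over all genes that was added here. The leucine branch had 4 of 4 called in limma with a median of -0.60 and the valine branch 4 of 4 with -0.52.

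These counts were set on the values as deposited. With the array medians set equal, 9 of 9 enzymes were lower in both 68w groups, while the median of all genes moved to -0.18 for Ath+HF+BCAA and -0.14 for Ath+HF, and the share of higher genes among all called moved to 28.3% and 16.2%, compared with 51.2% and 49.9% as deposited. With a further quantile normalization the share for Ath+HF was 35.8%, and 9 of 9 enzymes were lower with Ath+HF+BCAA and 7 of 9 with Ath+HF. No enzyme changed direction in these 2 comparisons under either scaling.

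At 38w none of the 9 enzymes was called in either Ath+HF group. With Ath+HF+BCAA, the differences from basal diet ran over -0.10 in Acad8 to 0.04 in Auh, and 1.82% of all genes were called lower and 3.67% higher. With Ath+HF, they ran over -0.22 in Acad8 to 0.10 in Acadsb, and 1.18% of all genes were called lower and 3.05% higher. Of the genes called with Ath+HF, 72.1% were higher as deposited, 49.5% with equal array medians and 58.4% after quantile normalization. At an unadjusted p under 0.05, limma also counted 0 of the 9 in the Ath+HF group, beside 3504 genes in all, and 0 of the 9 in the Ath+HF+BCAA group, beside 3979. The methods' analysis of variance with Bonferroni adjustment, run here on the arrays, called 0 in both. Acad8 was nearest to a change, with a 95% confidence interval of -0.47 to 0.03 in the Ath+HF group (adjusted p = 0.355) and 3 arrays under those of basal diet. For Auh the interval was -0.24 to 0.25, so a change within it in either direction is not excluded. The interval is not a limit of detection at the adjusted threshold.

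**Figure D2:**
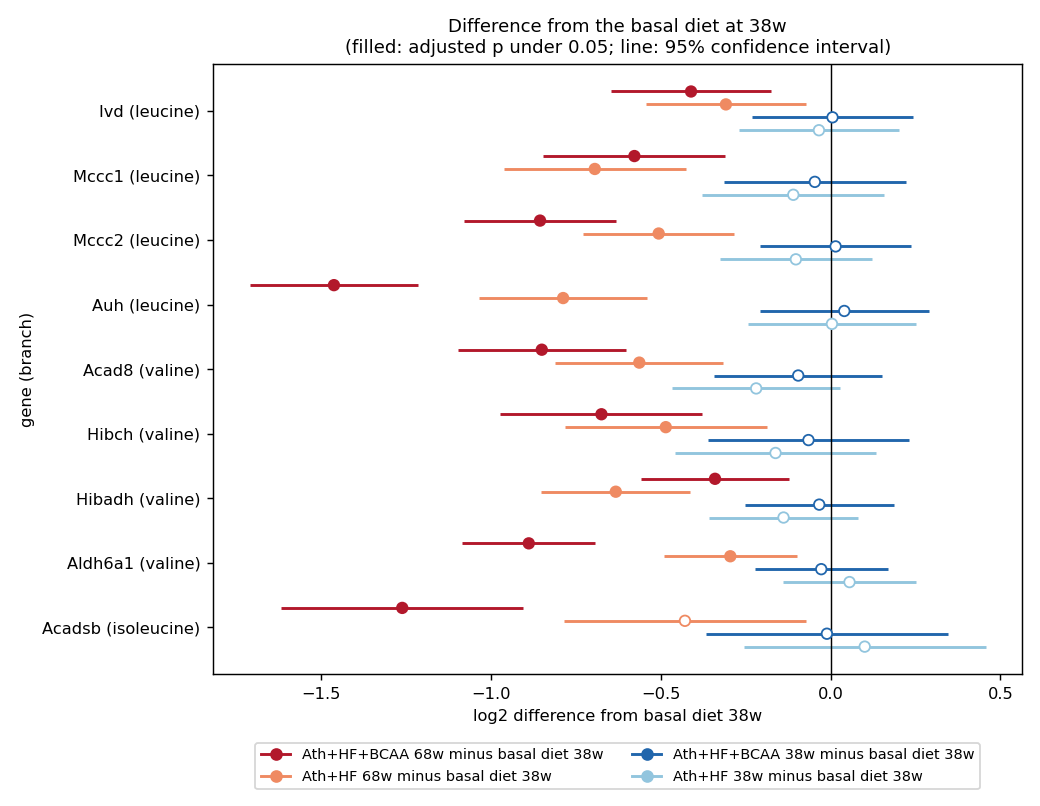
Log2 difference from the basal diet group of 38w (horizontal axis) with its 95% confidence interval for each of the 9 enzymes, in the Ath+HF+BCAA group of 68w, the Ath+HF group of 68w, the Ath+HF+BCAA group of 38w and the Ath+HF group of 38w (from top to bottom within a gene). Filled points are called, which are 9 and 8 of 9 in the 68w groups and 0 in the 38w groups, and Auh and Acadsb with Ath+HF+BCAA at 68w lie farthest below 0, at -1.46 and -1.26.

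Within the same diet by label, 68w was set against 38w, which uses no basal diet array but the same 68w arrays as above. If both 68w labels were exchanged, each of these comparisons would be across diets. Here too, age, the weeks of feeding and any difference in handling cannot be told apart. With Ath+HF+BCAA, 9 of 9 enzymes were lower at 68w, where 18.3% of all genes were called lower and 20.5% higher. Auh differed by -1.50 (SE 0.12, adjusted p = 3.24e-07), a 2.83-fold lower signal, Acadsb by -1.25, Mccc2 by -0.87, Aldh6a1 by -0.86 and Acad8 by -0.75. Hibadh had the smallest difference, -0.31, and its call was lost without replicate 3 of the 38w group (limma adjusted p = 0.0966) and without replicate 1 (0.111) or 2 (0.0745) of the 68w group, and with the mean of its 2 clusters (0.352). The median over the 9 was -0.75, beside 0.03 over all genes. The methods' analysis of variance with Bonferroni adjustment called 8 of 9, without Hibadh, and 5 of 9, without Ivd, Mccc1 and Hibch too, with the Benjamini-Hochberg adjustment added. In this comparison 3 of 10 macrophage, 5 of 8 stellate cell and fibroblast, 4 of 5 cholangiocyte, 2 of 6 endothelial and 2 of 5 T and B cell markers were higher, and 1 stellate cell and fibroblast, 1 endothelial and 2 of 8 hepatocyte markers were lower, and their part in the result was not tested. With equal array medians, 28.6% of the genes called were higher, compared with 52.8% as deposited, and the enzymes stayed at 9 of 9 lower.

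With Ath+HF, 7 of 9 enzymes were lower at 68w than at 38w, where 20.0% of all genes were called lower and 17.6% higher. Auh differed by -0.79 (SE 0.12, adjusted p = 0.00014), Mccc1 by -0.58, Acadsb by -0.53, Hibadh by -0.49, Mccc2 by -0.40, Aldh6a1 by -0.35 and Acad8 by -0.34. Hibch with -0.32 (adjusted p = 0.0803) and Ivd with -0.27 (adjusted p = 0.0637) were not called. Of the markers, 8 of 10 for macrophages, 5 of 8 for stellate cells and fibroblasts, 4 of 6 for endothelium and 1 of 5 for T and B cells were lower, and 1 for macrophages and 1 of 8 for hepatocytes were higher, and their part in the result was not tested. The calls of Acad8 and Acadsb did not hold on leaving out any 1 of several arrays. Both were lost without replicate 1 or 2 of the 38w group or replicate 3 of the 68w group, and that of Acad8 also without replicate 2 of the 68w group (limma adjusted p = 0.0552 to 0.121). With the array medians set equal 9 of 9 were lower, with quantile normalization 5 of 9, and the share of higher genes among all called was 24% with equal medians, compared with 46.9% as deposited. The methods' analysis of variance with Bonferroni adjustment called 5 of 9, without Acad8 and Acadsb, and 3 of 9 (Auh, Hibadh and Aldh6a1) with Benjamini-Hochberg adjustment added here.

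Whether the supplement separated the enzymes within an age was asked with Ath+HF+BCAA against Ath+HF. At 38w, 0 of 9 enzymes and 0% of all genes were called lower and 0% higher, and 1528 genes but none of the 9 had an unadjusted p under 0.05. The methods' analysis of variance with Bonferroni adjustment, run here on the arrays, called 0 of the 9 as well. The differences ran over -0.11 in Acadsb to 0.12 in Acad8. The 95% confidence intervals reached from -0.47 to 0.24 in Acadsb, the least certain, and from -0.28 to 0.11 in Aldh6a1, the most certain. With 3 arrays a group, shifts within these intervals are not excluded.

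At 68w, 4 enzymes were lower in the arrays labelled Ath+HF+BCAA and 1 was higher, where 16.4% of all genes were called lower and 19.8% higher. Acadsb differed by -0.83 (SE 0.17, adjusted p = 0.00108), a 1.78-fold lower signal, Auh by -0.67 (SE 0.12, adjusted p = 0.000293), Aldh6a1 by -0.59 (SE 0.09, adjusted p = 0.000113) and Mccc2 by -0.35 (SE 0.10, adjusted p = 0.0166). Hibadh was 1.22-fold higher, with a difference of 0.29 (SE 0.10, adjusted p = 0.0372). Acad8 with -0.29 (adjusted p = 0.0649), Hibch with -0.19, Ivd with -0.10 and Mccc1 with 0.12 were not called. The median over the 9 was -0.29, beside -0.09 over all genes. The call of Hibadh was lost without replicate 1, 2 or 3 of the Ath+HF group or replicate 2 or 3 of the Ath+HF+BCAA group (limma adjusted p = 0.0706 to 0.134), with the mean of its 2 clusters (0.245) and with all clusters in the fit (0.0521). That of Mccc2 was lost without replicate 1 of the Ath+HF group or replicate 1 or 2 of the Ath+HF+BCAA group (0.0682 to 0.0825), so that without Ath+HF replicate 1 or Ath+HF+BCAA replicate 2 of 68w the count was 3 of 9. The calls of Acadsb, Auh and Aldh6a1 held in the 24 limma alternatives tried, with adjusted p of at most 0.0086, while the methods' analysis of variance with Bonferroni adjustment called 4 of 9, without Hibadh, and 2 of 9 (Auh and Aldh6a1) with the added adjustment.

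Within the leucine and valine branches some genes were called and others not, which does not show that they changed unequally. In the leucine branch 2 of 4 genes were lower (median -0.23), in the valine branch 1 was lower and 1 higher of 4 (median -0.24), and the single gene of the isoleucine branch was lower. The opening dehydrogenases of the 3 branches differed by -0.83 in Acadsb, -0.29 in Acad8 and -0.10 in Ivd.

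Macrophage markers moved in the same comparison, with 7 of 10 higher and 1 lower, as did those of stellate cells and fibroblasts with 6 of 8 higher, of endothelium with 5 of 6 higher, of cholangiocytes with 4 of 5 higher and of T and B cells with 3 of 5 higher. Of the 8 hepatocyte markers, 3 were lower and none higher. The summed levels of these lists, as the mean log2 signal per array, were 9.32 to 9.40 and 8.66 to 8.84 for endothelium, 7.54 to 7.62 and 6.70 to 6.81 for cholangiocytes, 6.81 to 7.72 and 6.42 to 6.51 for T and B cells, and 13.26 to 13.39 and 13.43 to 13.52 for hepatocytes, each with Ath+HF+BCAA before Ath+HF at 68w. All macrophage, stellate cell, endothelial and hepatocyte markers reached the median of all values (7.04) in some group, while Cftr, Cd79a and Ms4a1 did not. The part of these cell types in the differences of the enzymes was not tested. Against basal diet, the Ath+HF group of 68w had 5 of 10 macrophage, 3 of 6 endothelial, 1 of 8 stellate cell and fibroblast and 1 of 5 T and B cell markers lower. Higher there were 1 of 5 cholangiocyte and 2 of 8 hepatocyte markers. The Ath+HF+BCAA group of 68w had 7 of 10 macrophage, 6 of 8 stellate cell and fibroblast, 4 of 5 cholangiocyte, 3 of 6 endothelial and 2 of 5 T and B cell markers higher. Lower there were 1 macrophage, 1 stellate cell and fibroblast, 1 endothelial and 1 of 8 hepatocyte markers. At 38w the macrophage list averaged 9.13 to 9.40 per array with Ath+HF+BCAA and 9.26 to 9.57 with Ath+HF. The part of these markers in the differences from basal diet was not tested either.

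**Figure D3:**
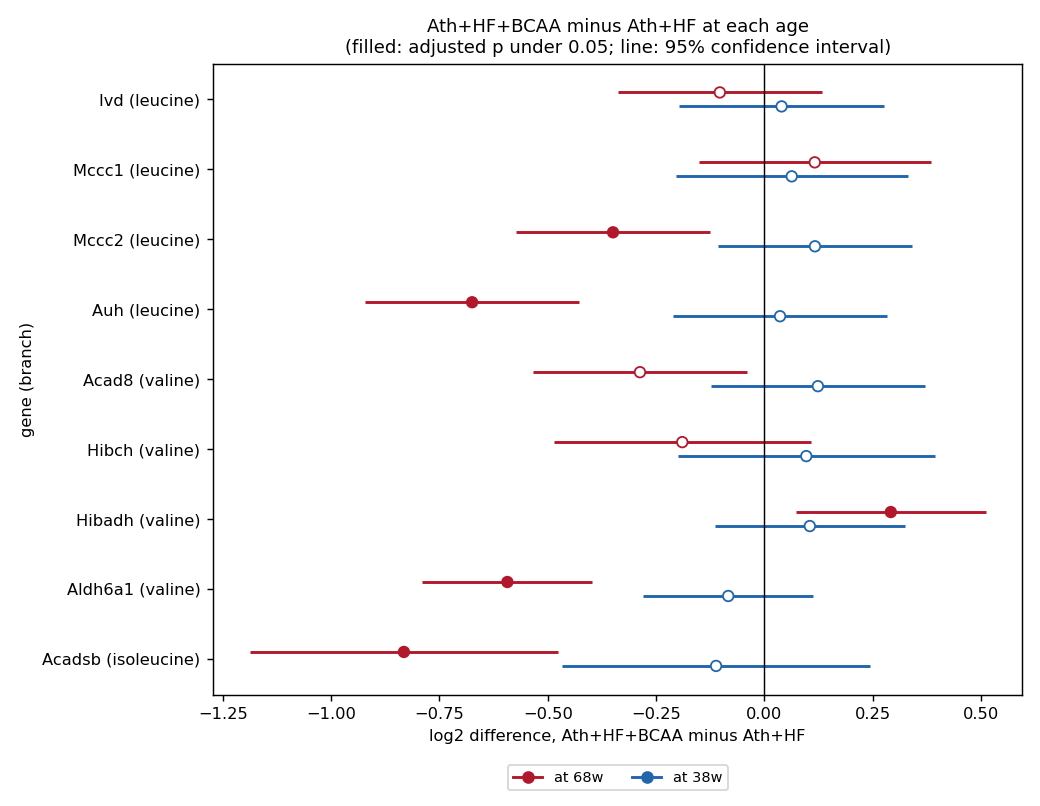
Log2 difference of Ath+HF+BCAA minus Ath+HF (horizontal axis) with its 95% confidence interval for the 9 enzymes, at 68w (upper of each pair) and at 38w (lower). Filled points are called, and the 4 called below 0 (Mccc2, Auh, Aldh6a1 and Acadsb) and the 1 called above 0 (Hibadh) are all of 68w.

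Whether the difference of Ath+HF+BCAA minus Ath+HF was itself different at 68w and at 38w was tested in the same fit. It was called in 4 of 9 enzymes, all lower, where 7.67% of all genes were called lower and 12.9% higher. The log2 difference at 68w minus that at 38w was -0.71 in Auh (SE 0.16, adjusted p = 0.00584), -0.51 in Aldh6a1 (SE 0.13, adjusted p = 0.011), -0.47 in Mccc2 (SE 0.15, adjusted p = 0.0361) and -0.72 in Acadsb (SE 0.24, adjusted p = 0.0418). Auh and Aldh6a1 stayed called on leaving out any 1 array. The call of Mccc2 was lost without any 1 of 9 arrays and that of Acadsb without any 1 of 8, and the count was 2 of 9 without replicate 1 or 3 of Ath+HF at 38w, replicate 3 of Ath+HF+BCAA at 38w, replicate 1 or 2 of Ath+HF at 68w, or replicate 1 or 2 of Ath+HF+BCAA at 68w. For Hibadh, higher with Ath+HF+BCAA at 68w, the difference between the ages was 0.19 (95% confidence interval -0.12 to 0.50, adjusted p = 0.4), so a difference from its 38w value was not shown. All of these values rest on the labels of the 68w arrays, whose exchange would turn the sign of the 68w difference.

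The 2 subunits of 3-methylcrotonyl-CoA carboxylase were compared on the same arrays, as Mccc1 minus Mccc2. The log2 difference was -0.10, -0.12 and -0.26 in the Ath+HF+BCAA group and -0.52, -0.62 and -0.74 in the Ath+HF group at 68w. At 38w it averaged -0.50 with Ath+HF+BCAA and -0.45 with Ath+HF, against -0.44 on basal diet. The 68w groups did not overlap, and their means of -0.16 ± 0.09 and -0.63 ± 0.11 (SD, n = 3 each) lay on opposite sides of the 38w means. Hibch and Hibadh, neighbours in the valine branch, were compared in the same way. Hibch minus Hibadh was -2.75, -2.69 and -2.68 in the Ath+HF+BCAA group and -2.14, -2.25 and -2.28 in the Ath+HF group at 68w, while 1 Ath+HF+BCAA array of 38w had -2.81. Acadsb minus Ivd averaged -1.54 ± 0.20 with Ath+HF+BCAA and -0.81 ± 0.27 with Ath+HF at 68w (SD, n = 3 each). With 3 arrays against 3, an exact permutation test cannot go below p = 0.1 two-sided. Each of these 3 pairs reached that floor between the 68w groups, and over 10 such tests of 5 pairs the adjusted p was 0.167. Unequal change of a pair was thus not shown.

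**Figure D4:**
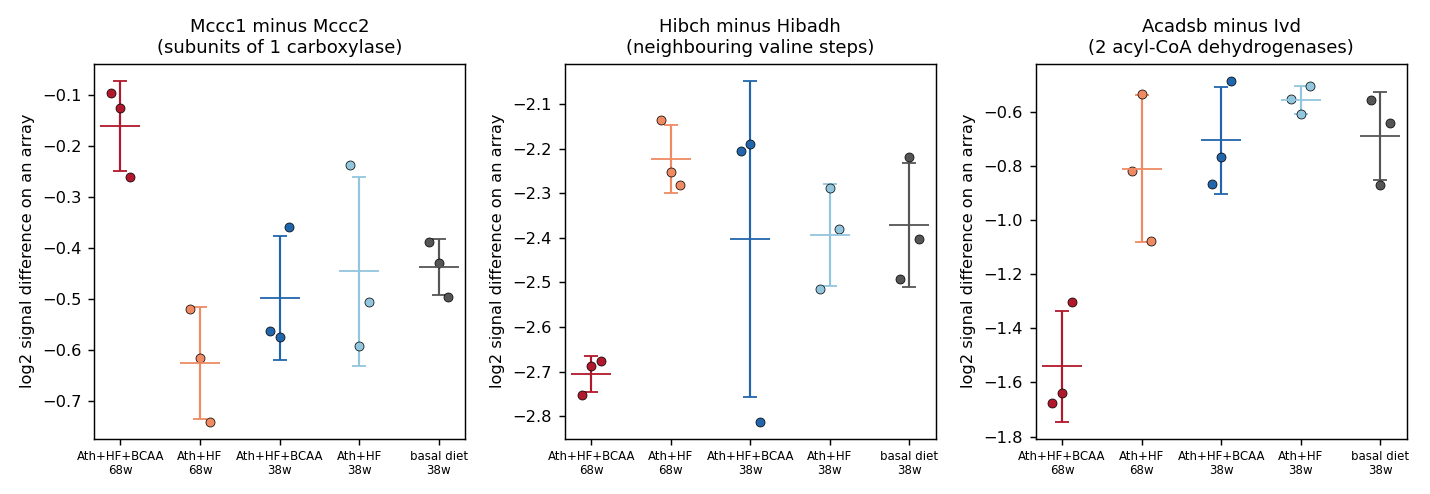
Log2 signal of 1 enzyme minus that of another on the same array (vertical axis), with the mean and SD of 3 arrays, in the Ath+HF+BCAA and Ath+HF groups of 68w, the Ath+HF+BCAA and Ath+HF groups of 38w and the basal diet group of 38w. Mccc1 minus Mccc2 is highest with Ath+HF+BCAA at 68w (mean -0.16), where Hibch minus Hibadh (mean -2.71) and Acadsb minus Ivd (mean -1.54) are lowest.

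Likeness of pattern was measured as the root mean square distance between the 5 group means of 2 genes, each gene centred on its own mean over the groups, and is a description of these arrays. Among the 9 enzymes the closest were Mccc2 and Acad8 (0.05 on the log2 scale), Acad8 and Hibch (0.06) and Ivd and Hibch (0.09), of which Acad8 and Hibch share a branch. Mccc1 lay nearest to Hibadh (0.09). Auh and Hibadh were the farthest apart (0.47). Auh lay nearest to Acadsb (0.15) among the enzymes, both with a step between the 68w groups. The search outside the list ran over far more genes than the 9, so that a nearer gene there is nearly fixed in advance. Each enzyme had genes outside the list that were nearer than any other enzyme. Those were Cox6a1 and Bet1 for Auh (0.05 and 0.06), Med21 and Rps27l for Acadsb, Abhd17b and Bola1 for Aldh6a1, Tmem167 and Skp1 for Mccc2, and Arpp19 and Bbs5 for Hibadh. For the others they were Ppp1r42 and Cby1 (Ivd), Arfgef1 and Akirin1 (Mccc1), Cyp2c65 and Uxt (Acad8), and Fam228b and Rnf4 (Hibch).

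Other genes of BCAA catabolism were read from a list, of which 14 were measured. Not all of those called went in the same direction. Against basal diet, 8 were lower and 1 was higher in the Ath+HF+BCAA group of 68w (median -0.52). Of all genes, 21.8% were called lower and 22.9% higher there. In the Ath+HF group of 68w, 5 were lower and 3 higher (median -0.10), beside 19.1% and 19.0% of all genes. Among the lower ones were Ppm1k, the phosphatase that activates the ketoacid dehydrogenase complex, with -1.50, Pccb, a subunit of propionyl-CoA carboxylase, with -1.12, the thiolase Acat1 with -1.10, and Dld, the E3 subunit that several dehydrogenase complexes share, with -1.10, all with Ath+HF+BCAA. With Ath+HF, Dld differed by -1.08, Pccb by -0.60, Ppm1k by -0.57 and Pcca, the other carboxylase subunit, by -0.49. Bcat2, the mitochondrial transaminase of the first step, was higher in both 68w groups, by 0.30 each.

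Between the 68w groups, 7 of the 14 were lower with Ath+HF+BCAA and 1 was higher, beside 16.4% and 19.8% of all genes. The largest differences were in genes that the isoleucine branch shares with other routes, Hsd17b10 with -1.39 and Acat1 with -1.36, followed by Bckdha, the E1α subunit of the ketoacid dehydrogenase, with -0.95 and Ppm1k with -0.93. Bckdhb, the E1β subunit, was higher by 0.32, so the 2 subunits of E1 went opposite ways. They did so too in the Ath+HF group of 68w against basal diet, with 0.44 in Bckdha and -0.44 in Bckdhb. With Ath+HF at 68w against 38w, 4 of these 14 genes were lower and 4 higher, beside 20.0% and 17.6% of all genes. Of the 9 downstream enzymes, 7 were lower and none higher there, and a difference between the lists was not tested. Among the 14, the largest differences were -0.89 in Dld, -0.64 in Bckdhb, 0.51 in Bckdha and 0.50 in Hsd17b10.

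The acyl-CoA dehydrogenases pass electrons through the flavoprotein of Etfa and Etfb to Etfdh, the ubiquinone oxidoreductase. All 3 of these genes were lower in the arrays labelled Ath+HF+BCAA than in those labelled Ath+HF at 68w, Etfdh by -1.54, Etfa by -0.75 and Etfb by -0.60. Etfdh had 10.37, 10.45 and 10.62 with Ath+HF+BCAA and 11.98, 12.05 and 12.02 with Ath+HF at 68w, against 12.22, 12.04 and 12.27 on basal diet. Only Etfa was lower than on basal diet in the Ath+HF group of 68w (-0.31). Of all genes, 16.4% were called lower between the 68w groups and 19.1% in Ath+HF at 68w against basal diet.

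Dehydrogenases of other acyl-CoA substrates were set beside Ivd, Acad8 and Acadsb. Of 8, 6 were lower and none higher than on basal diet in the Ath+HF+BCAA group of 68w, with Acadvl (very long chains) at -1.44, Acadm (medium chains) at -0.94, Gcdh (glutaryl-CoA) at -0.92 and Acad11 at -0.90. In the Ath+HF group of 68w, 2 were lower, Acad9 with -0.68 and Gcdh with -0.38, and Acadl, for long chains, was higher with 0.49. Against its 38w group, Ath+HF at 68w had 2 of the 8 higher, Acadl by 0.78 and Acads, for short chains, by 0.34, and 2 lower, Acad9 with -0.51 and Gcdh with -0.26, where Acad8 differed by -0.34, Acadsb by -0.53 and Ivd by -0.27. Of all genes, 21.8%, 19.1% and 20.0% were called lower in these comparisons in turn, and 22.9%, 19.0% and 17.6% higher. Whether these members of the family and the 3 BCAA enzymes differ in their response was not tested.

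**Figure D5:**
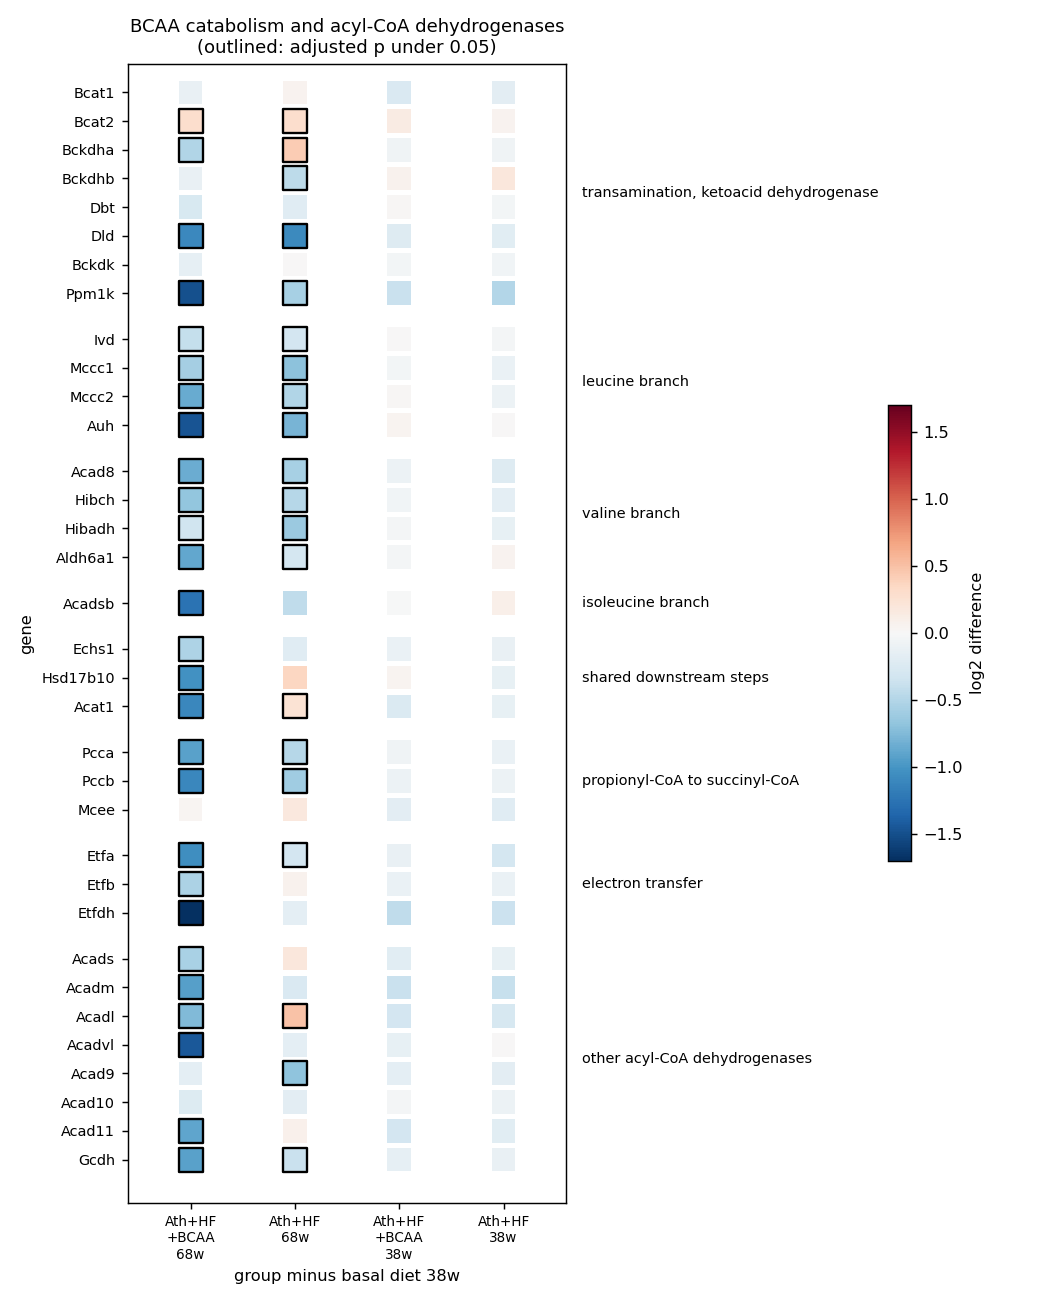
Log2 difference from the basal diet group of 38w (color) for genes of BCAA catabolism in pathway order, electron transfer genes and other acyl-CoA dehydrogenases, in the Ath+HF+BCAA and Ath+HF groups of 68w and the Ath+HF+BCAA and Ath+HF groups of 38w (columns). Outlined squares are called, and the values of all 9 branch enzymes lie below 0 in both 68w columns while Bckdha, Acat1 and Acadl are lower with Ath+HF+BCAA and higher with Ath+HF.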

How the data were processed

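RNA of mouse liver was hybridized to 15 Mouse Gene 1.0 ST arrays, whose labels give 5 groups of 3. The authors made the deposited log2 values by RMA in Affymetrix Expression Console, which background-corrects, quantile normalizes and summarizes probe signals per transcript cluster. Versions are not given in the sources used here. RMA pools probes over a gene, so isoforms are not told apart. The 35556 clusters were named through the platform's annotation, where 21789 carried 1 symbol, and the cluster with the highest mean was used for the 999 genes with several.

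All arrays entered 1 fit with a coefficient for each group in limma (version 3.58.1) under R (version 4.3.3), with 10 residual degrees of freedom. From it came 9 comparisons, with Benjamini-Hochberg adjusted p-values over 19938 genes and a threshold of 0.05. The methods' analysis of variance, in which P-values of pairs of groups are adjusted by Bonferroni, was run as an alternative and counted with and without a further Benjamini-Hochberg adjustment. The fit was tested on simulated data. The members and lists were chosen with earlier results of these data known. All 9 members are named, and of the other pathway lists up to 4 called genes per comparison with the largest difference. The other genes named serve to set 1 gene beside another, and were chosen after their values were seen. As alternatives, each array was left out in turn, arrays were given weights or the replicate number entered as a block, and the variance was given a trend and a robust prior. The values were also set to equal array medians or quantile normalized once more. Further fits held only the compared groups, no dim genes, all clusters, or gene means over clusters. Promoter windows are from RefSeq on GRCm38.p6, and protein sequences were not used here. The number of arrays limits the precision.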

Additional observations from a re-analysis of the deposited data

Results flagged for a closer look

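In 4 of the 9 enzymes the difference between Ath+HF+BCAA and Ath+HF was not the same at 68w as at 38w, by the test of the difference itself in limma, in which 7.67% of all genes were called lower and 12.9% higher. The change of the log2 difference was -0.72 in Acadsb (adjusted p = 0.0418), -0.51 in Aldh6a1 (adjusted p = 0.011), -0.71 in Auh (adjusted p = 0.00584) and -0.47 in Mccc2 (adjusted p = 0.0361). Over 24 alternatives the highest adjusted p was 0.0338 in Aldh6a1 and 0.0201 in Auh, while Acadsb reached 0.114 and Mccc2 0.1, and each of these 2 was called in 13 of the 24. The arrays labelled Ath+HF+BCAA and Ath+HF at 68w also differed in the markers of macrophages, stellate cells, endothelium and cholangiocytes, and the part of these in the 4 enzymes was not tested. The changes of the log2 difference rest on these labels, and an exchange of labels was not tested.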

How the results depend on the processing

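Over 2088 values of single genes under the alternatives, 8 crossed to a call on leaving out an array and 16 under other settings, 47 and 36 lost theirs, and no called value changed its direction. A change of sign occurred in 37 values called in neither setting, the largest of them 0.09 on the log2 scale, and 34 of them compared groups of 38w. The methods' analysis of variance with a Benjamini-Hochberg adjustment added called fewer enzymes, 7 of 9 for Ath+HF+BCAA 68w against basal diet (Ivd and Hibadh lost), 5 of 9 for Ath+HF 68w against basal diet, 2 for Ath+HF+BCAA against Ath+HF at 68w, 3 for Ath+HF 68w against 38w and 5 for Ath+HF+BCAA 68w against 38w. The difference of the BCAA differences between the ages counted 2 enzymes with all transcript clusters in the fit, where more rows are adjusted for. It also counted 2 with the replicate number as a block. Arrays with the same number did not deviate together (correlations of -0.16 to 0.18), so the numbers were not taken as pairs. The block moved the count of all genes called, for example 7511 against 7603 in the fit without it for Ath+HF 68w against basal diet, and of the enzymes' calls it also ended that of Hibadh between the 68w groups (adjusted p = 0.0535).

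Leaving out 1 array gave 5 to 9 enzymes for Ath+HF 68w against basal diet, 8 to 9 for Ath+HF+BCAA 68w against basal diet, 3 to 5 for Ath+HF+BCAA against Ath+HF at 68w, 5 to 8 for Ath+HF 68w against 38w, 8 to 9 for Ath+HF+BCAA 68w against 38w and 2 to 5 for the difference of differences. Comparisons among 38w groups gave 0 throughout. The enzymes' signals, 8.32 or more on each array, lay above the median of all values (7.04), and leaving out dim genes (12527 were left) added the calls of Acadsb for Ath+HF 68w against basal diet (adjusted p = 0.0375), Acad8 between the 68w groups (0.0416) and Ivd for Ath+HF 68w against 38w (0.0419).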
